A study of Homo sapiens with 12 samples.

Results

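The mitochondrial carriers of the SLC25 family were examined in RNA-seq of 2 human prostate cancer cell lines treated with pentamidine. The members were the genes whose name in the deposited count table was SLC25A followed by a number, kept where at least 3 samples held 10 or more counts. Of 46 such genes listed, 40 were kept, out of 32077 genes in all. The 6 that were not kept were SLC25A2, SLC25A18, SLC25A27, SLC25A41, SLC25A47 and SLC25A48, whose counts ran from 0 to 11 per library. At the edge of the rule, the third-highest count was 9 for SLC25A18, just outside, and 17 for SLC25A34, just inside.

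PC3 and DU145 are established cell lines that grow without androgen. Each was labelled wild type and was cultured for 48 hours at 1000000 cells per well with 2.5 μmol/L pentamidine, an aromatic diamidine used against protozoa and Pneumocystis, or with vehicle. The 12 samples fell into 4 groups of 3, named here PC3 vehicle, PC3 pentamidine, DU145 vehicle and DU145 pentamidine. Nothing in the labels says that the 3 samples of a group came from separate cultures, so the p-values measure the spread between these samples, which may be technical. Between pairs of libraries of a group, the mean chi-square per gene against equal shares was 3.6 to 7.3 in PC3 vehicle. It was 1.7 to 3.1 in the other groups, so PC3 vehicle had the widest spread by this measure. mRNA was captured with Oligo(dT) beads, and the authors deposited whole-number read counts per gene, with 13514195 to 15131436 counts per library.

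The line names are those of the labels, and some markers went against them. CTNNA1, known as deleted in PC3, was at 431 to 577 CPM (a gene's counts scaled to 1000000 counts per library) in the libraries labelled PC3. EPCAM, a gene of epithelial cells, had at most 1 count in a library labelled PC3 and 2 counts in one labelled DU145. KRT8, an epithelial keratin, was at 16.1 to 21.4 CPM in PC3 and 1817 to 2795 CPM in DU145, and its partner KRT18 was at 144 to 208 CPM and 685 to 941 CPM. KLK3, an androgen receptor target, had at most 2 counts in a library of either line. The study's methods state that the lines were authenticated by short tandem repeat profiling. Below, PC3 and DU145 mean the libraries with those labels, and the part of these markers in any result was not tested.

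SLC25 proteins are encoded in the nucleus, made in the cytosol and inserted mostly in the inner mitochondrial membrane, where each lets a few metabolites cross. They exchange ADP for ATP, import phosphate, iron and cofactors, and link the Krebs cycle and amino acid metabolism of the matrix to the cytosol. Some, the uncoupling proteins, can dissipate the proton gradient. The question here was which carriers' mRNA moved with pentamidine in each line, by the substrate they carry.

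In PC3, SLC25A6, SLC25A29 and SLC25A43 were among 9 carriers that rose, and SLC25A10, SLC25A13 and SLC25A32 were among 9 that fell, of 39 tested (edgeR's quasi-likelihood test, Benjamini-Hochberg adjusted p below 0.05 over all genes). The 18 calls were 46.2% of the carriers tested, beside 43.4% of all 13861 genes tested (21.7% higher and 21.7% lower). In DU145, 8 of 40 rose and 7 fell, or 37.5%, beside 34.0% of 14313 genes (17.2% higher and 16.8% lower). The shares of carriers called were thus near those of all genes, and carriers as a family did not stand out by their count. Scaled by library size alone, the DU145 split became 13 higher and 7 lower, and over all genes the share of calls that were higher went from 50.6% to 66.6%. The median log2 fold change of the carriers was -0.09 in PC3 (0.0046 over all genes) and 0.0060 in DU145 (0.0085 over all genes).

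The changes were small. With each line fitted alone, no carrier reached a log2 fold change of 1 with adjusted p below 0.05 by edgeR, DESeq2 or limma. At an unadjusted p below 0.05 none did either. Of all genes, 4.75% in PC3 and 2.03% in DU145 did by edgeR with adjustment. SLC25A34 was not tested in PC3 by this edgeR fit, and it passed 1 there with all 12 samples in one fit. Past 0.5 with an adjusted p below 0.05 were 4 carriers in PC3, among them SLC25A6, SLC25A10 and SLC25A43, beside 16.6% of all genes, and 1 in DU145 (SLC25A45), beside 7.1%. In edgeR, 21 carriers in PC3 and 22 in DU145 had an unadjusted p below 0.05. The share of all genes at that threshold was not computed, so these counts are not read as a trait of carriers. The 3 treated libraries lay wholly above or below the 3 vehicle libraries for 25 of 39 carriers in PC3 and 23 of 40 in DU145, and for 52.1% and 44.0% of all genes. Of the 39 carriers tested in both lines, 3 rose in both (SLC25A6, SLC25A26, SLC25A29), 5 fell in both (among them SLC25A12, SLC25A13, SLC25A32 and SLC25A44), SLC25A37 rose in PC3 and fell in DU145, and 15 passed the test in neither. The matching shares of all genes were not computed, so these counts are not read as a response shared by the family.

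**Figure D1:**
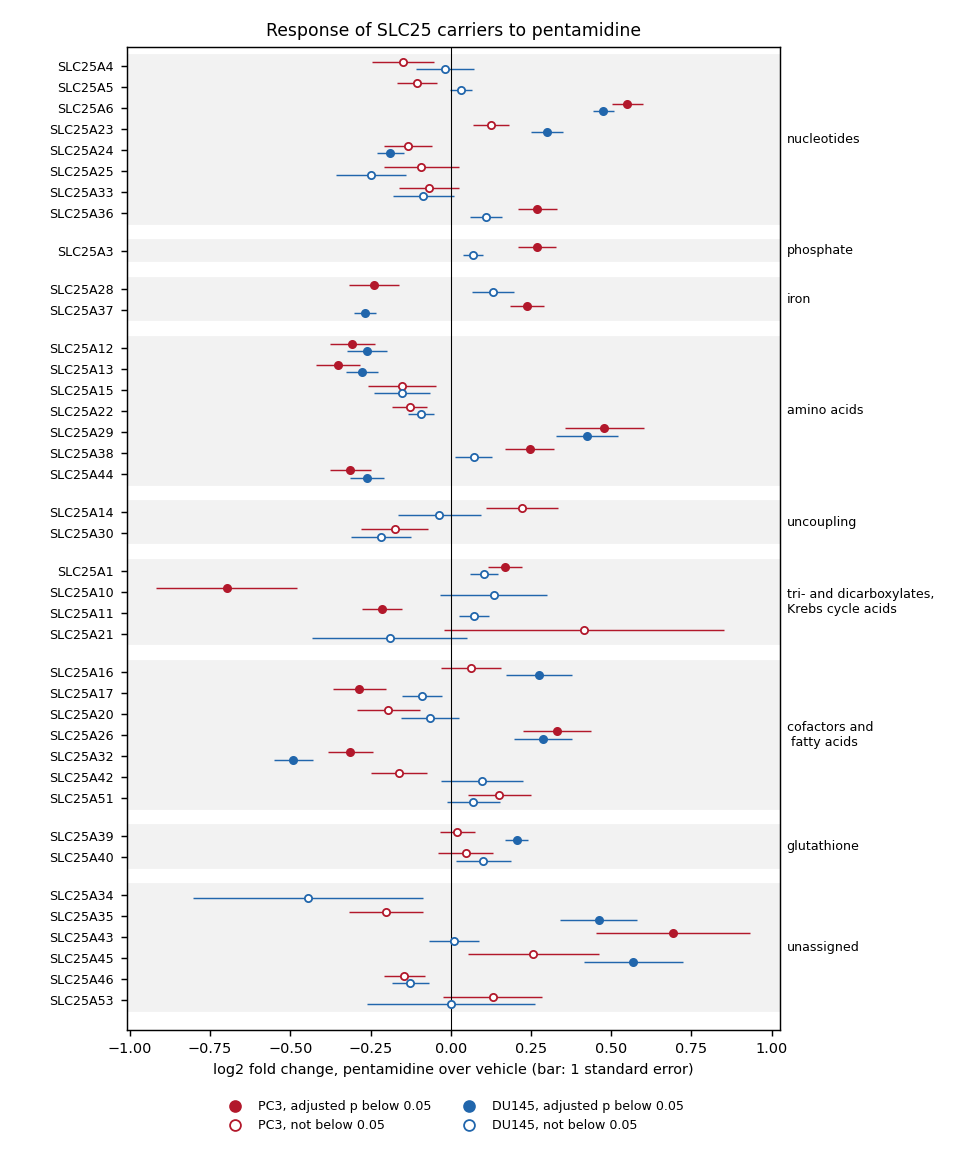
Log2 fold change of pentamidine over vehicle (x axis) for the carriers (y axis, grouped by substrate), in PC3 (red) and DU145 (blue). Points are estimates from edgeR, bars are 1 standard error, and filled points had an adjusted p below 0.05. SLC25A6 lies to the right in both lines (0.55 and 0.48), and the iron carriers SLC25A28 and SLC25A37 lie on opposite sides of 0.

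The protein-coding transcripts of mitochondrial DNA, with its rRNA and tRNA left out, moved far more in the same libraries. Their share of all counts was 3.35% to 3.50% in PC3 vehicle and 0.244% to 0.257% with pentamidine, and 3.82% to 4.04% in DU145 vehicle and 0.205% to 0.213% with pentamidine. With all mitochondria-encoded genes left out of the scaling, the counts of carriers called were again 9 higher and 9 lower in PC3 and 8 higher and 7 lower in DU145. All 40 carriers together took 0.312% ± 0.0048 (SD, n = 3) of the counts in PC3 vehicle, 0.336% ± 0.0035 in PC3 pentamidine, 0.306% ± 0.0033 in DU145 vehicle and 0.337% ± 0.0034 in DU145 pentamidine, without overlap between treated and vehicle libraries of a line. An exact permutation test of 3 against 3 cannot go below p = 0.1. These shares are of unscaled counts, and the total includes the mitochondrial mRNA above. Within the carriers' counts, SLC25A3, SLC25A5 and SLC25A6 went from 46.5% to 52.3% in PC3 and from 44.7% to 49.4% in DU145. The sum is thus not read as a rise of the family. Counts show shares of the RNA in a library, so a gene's fall cannot be told apart from a rise in the other RNA of the cell.

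Of the nucleotide carriers, 8 of 9 listed genes were kept. SLC25A6 and SLC25A36 rose in PC3 and the other 6 did not pass the test there, with log2 fold changes from -0.15 to 0.12. In DU145, SLC25A6 and SLC25A23 rose, SLC25A24 fell, and the other 5 ranged from -0.25 to 0.11. None of the 8 passed the test of a difference between the lines.

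The ADP/ATP carriers exchange cytosolic ADP for ATP made in the matrix. SLC25A6 (chrX:1386152-1392724, minus strand, GRCh38), which lies in the region shared by the X and Y chromosomes, had 503, 454 and 483 normalized CPM (with TMM scaling over all 12 libraries) in PC3 vehicle and 698, 716 and 687 in PC3 pentamidine. In DU145 it had 562, 538 and 529.8 with vehicle and 799.9, 716 and 742 with pentamidine. Every treated library was above every vehicle library of its line. The log2 fold change was 0.55 ± 0.048 (SE) in PC3 (edgeR adjusted p = 8.33e-08) and 0.48 ± 0.033 in DU145 (adjusted p = 1.47e-17), and both calls held under each alternative run.

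SLC25A5 (chrX:119468400-119471319, plus strand), the ADP/ATP carrier of many dividing cells, had 311, 352 and 372 normalized CPM in PC3 vehicle and 316, 331 and 312 in PC3 pentamidine. DU145 had 274, 275 and 264 with vehicle and 279.6, 282 and 266 with pentamidine. The groups overlapped in both lines, and the log2 fold changes were -0.10 ± 0.062 (edgeR adjusted p = 0.19) and 0.03 ± 0.034 (adjusted p = 0.51). Without PC3 vehicle replicate 1, the PC3 value was -0.18 with an adjusted p of 0.0032. SLC25A4 (chr4:185143241-185150382, plus strand), the carrier of heart and muscle, had 24.6, 19.4 and 21.6 normalized CPM in PC3 vehicle, 19.0, 18.9 and 20.9 in PC3 pentamidine, 19.3, 18.7 and 22 in DU145 vehicle and 21.5, 18.3 and 19.4 in DU145 pentamidine. It was thus at a similar low level in all 4 groups, with log2 fold changes of -0.15 ± 0.098 (adjusted p = 0.24) and -0.02 ± 0.090 (adjusted p = 0.90).

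Per kilobase of exon, SLC25A6 made up 48.7% ± 3.1 (SD, n = 3) of the ADP/ATP carrier transcripts in PC3 vehicle and 59.8% ± 0.26 in PC3 pentamidine, and 57.6% ± 0.56 and 64.9% ± 1.4 in DU145. SLC25A5 had 50.3% and 39.4% in PC3 and 41.4% and 34.4% in DU145, and SLC25A4 had 0.991% and 0.750% in PC3 and 0.95% and 0.759% in DU145. With the longest transcript as the length, SLC25A6 had 45.8% and 57.1% in PC3 and 54.8% and 62.3% in DU145. The windows of SLC25A5 and SLC25A6 are shown because both genes carry ADP and ATP while SLC25A6 passed the test and SLC25A5 did not. They are the 250 bases before the RefSeq start (GRCh38.p14), read 5′ to 3′ on the gene's strand at chrX:119468194-119468443 (plus) and chrX:1392114-1392363 (minus), with the GC box (GGGCGG or its complement CCGCCC) and the CCAAT box (CCAAT or ATTGG) in capitals. By the span the files give for each gene, the SLC25A6 window lies inside it and the SLC25A5 window runs into it.

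SLC25A5: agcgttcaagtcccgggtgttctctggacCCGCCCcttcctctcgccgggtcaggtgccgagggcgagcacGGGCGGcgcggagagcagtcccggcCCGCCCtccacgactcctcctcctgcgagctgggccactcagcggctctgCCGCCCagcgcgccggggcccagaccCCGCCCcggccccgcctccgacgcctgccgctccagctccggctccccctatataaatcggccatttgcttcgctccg
SLC25A6: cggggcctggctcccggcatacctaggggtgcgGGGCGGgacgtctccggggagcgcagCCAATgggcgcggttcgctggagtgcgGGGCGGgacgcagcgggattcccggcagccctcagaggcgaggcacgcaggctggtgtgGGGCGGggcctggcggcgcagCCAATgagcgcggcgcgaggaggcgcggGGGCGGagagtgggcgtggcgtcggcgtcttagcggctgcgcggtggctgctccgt

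The SLC25A5 window held 5 GC boxes and no CCAAT match, and that of SLC25A6 held 4 GC boxes and 2 CCAAT matches. Their GC content was 73.6% and 76.8%. A GC box was in at least 1 window of 27 of the 34 carriers with a RefSeq window (79.4%) and of 46.3% of all genes with a window, non-coding genes included. CCAAT was in 19 of 34 (55.9%) and 37.0%. The ETS motif (CCGGAA or TTCCGG) was in 14 of 34 (41.2%) and 17.2%, and in neither window above.

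The calcium-regulated ATP-Mg/phosphate carriers SLC25A23, SLC25A24 and SLC25A25 set the pool of adenine nucleotides in the matrix. In DU145, SLC25A23 rose by a log2 fold change of 0.30 ± 0.051 (edgeR adjusted p = 4.7e-06) and SLC25A24 fell, at -0.19 ± 0.041 (adjusted p = 0.00027), a call lost in limma (-0.14, adjusted p = 0.072). SLC25A23 went from 41.5% ± 2.4 (SD, n = 3) to 50.1% ± 0.61 of the transcripts of the 3 per kilobase. The same genes were at 0.12 and -0.13 in PC3 and did not pass the test, and the difference between lines did not pass either (adjusted p = 0.13 for SLC25A23). Of the pyrimidine nucleotide carriers, SLC25A36 rose in PC3, from 51.5 to 53.5 normalized CPM with vehicle to 62.7 to 63.8 with pentamidine (0.27 ± 0.060, adjusted p = 0.0015), while SLC25A33 ranged from 34.5 to 45.6 and from 33.7 to 39.6.

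Phosphate for ATP synthesis enters the matrix through SLC25A3 (chr12:98593591-98606379, plus strand), which also carries copper. It had 557, 613 and 657 normalized CPM in PC3 vehicle and 739.6, 750.3 and 704 in PC3 pentamidine, and 597, 599 and 578 in DU145 vehicle and 619, 621 and 615 in DU145 pentamidine. Treated libraries were above vehicle libraries in both lines, by a narrow margin in DU145. The log2 fold change was 0.27 ± 0.059 in PC3 (edgeR adjusted p = 0.0013) and 0.07 ± 0.030 in DU145 (adjusted p = 0.068). Scaled by library size alone, DU145 passed as well (0.12, adjusted p = 0.0012). The difference in response was 0.20 ± 0.064 (adjusted p = 0.027) and missed the threshold without any one of 8 of the 12 libraries, where the value ran from 0.14 to 0.20, and also by library size alone (0.13, adjusted p = 0.14) and in limma (0.13, adjusted p = 0.31).

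The mitoferrins SLC25A37 and SLC25A28 bring iron into the matrix for haem and iron-sulphur clusters, SLC25A37 chiefly in erythroid cells. SLC25A37 (chr8:23528805-23575463, plus strand) had 101, 106 and 108 normalized CPM in PC3 vehicle and 126, 119.8 and 125 in PC3 pentamidine. In DU145 it had 279, 269 and 263 with vehicle and 218, 226 and 227 with pentamidine. The groups did not overlap in either line, and they lay in opposite order. The log2 fold change was 0.24 ± 0.054 in PC3 (edgeR adjusted p = 0.0018) and -0.27 ± 0.034 in DU145 (adjusted p = 8.1e-09).

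SLC25A28 (chr10:99610522-99620609, minus strand) had 31.5, 34.6 and 35.2 normalized CPM in PC3 vehicle and 27.6, 30.0 and 28 in PC3 pentamidine, and 32.5, 35.3 and 33.1 in DU145 vehicle and 36.6, 36.8 and 36.8 in DU145 pentamidine. Treated libraries were below vehicle libraries in PC3 and above them in DU145. The log2 fold change was -0.24 ± 0.078 in PC3 (edgeR adjusted p = 0.020) and 0.13 ± 0.066 in DU145 (adjusted p = 0.12). The PC3 call was lost in DESeq2 (adjusted p = 0.055) and without any one of PC3 vehicle replicates 2 and 3 and PC3 pentamidine replicates 1 and 3 (values from -0.22 to -0.21, adjusted p from 0.060 to 0.084). DU145 passed when scaled by library size alone (0.18, adjusted p = 0.028) and in limma (0.18, adjusted p = 0.045).

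The difference in response between the lines, PC3 minus DU145, was 0.51 ± 0.062 for SLC25A37 (edgeR adjusted p = 4.95e-07) and -0.37 ± 0.098 for SLC25A28 (adjusted p = 0.0069), and both calls held under each alternative run. Per kilobase, SLC25A37 went from 40.2% ± 0.57 (SD, n = 3) to 48.3% ± 1.7 of the mitoferrin transcripts in PC3, and from 63.4% ± 1.4 to 56.7% ± 0.45 in DU145. With the longest transcript as the length, it went from 48.4% to 56.6% in PC3 and from 70.7% to 64.7% in DU145. Which mitoferrin was the larger in PC3 pentamidine thus depends on the length used. The sums below use the exon length. The sum of the 2 mitoferrins was 32.1 ± 1.6 and 31.4 ± 0.33 normalized CPM per kilobase in PC3, and 52.4 ± 1.0 and 48.4 ± 0.64 in DU145.

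**Figure D2:**
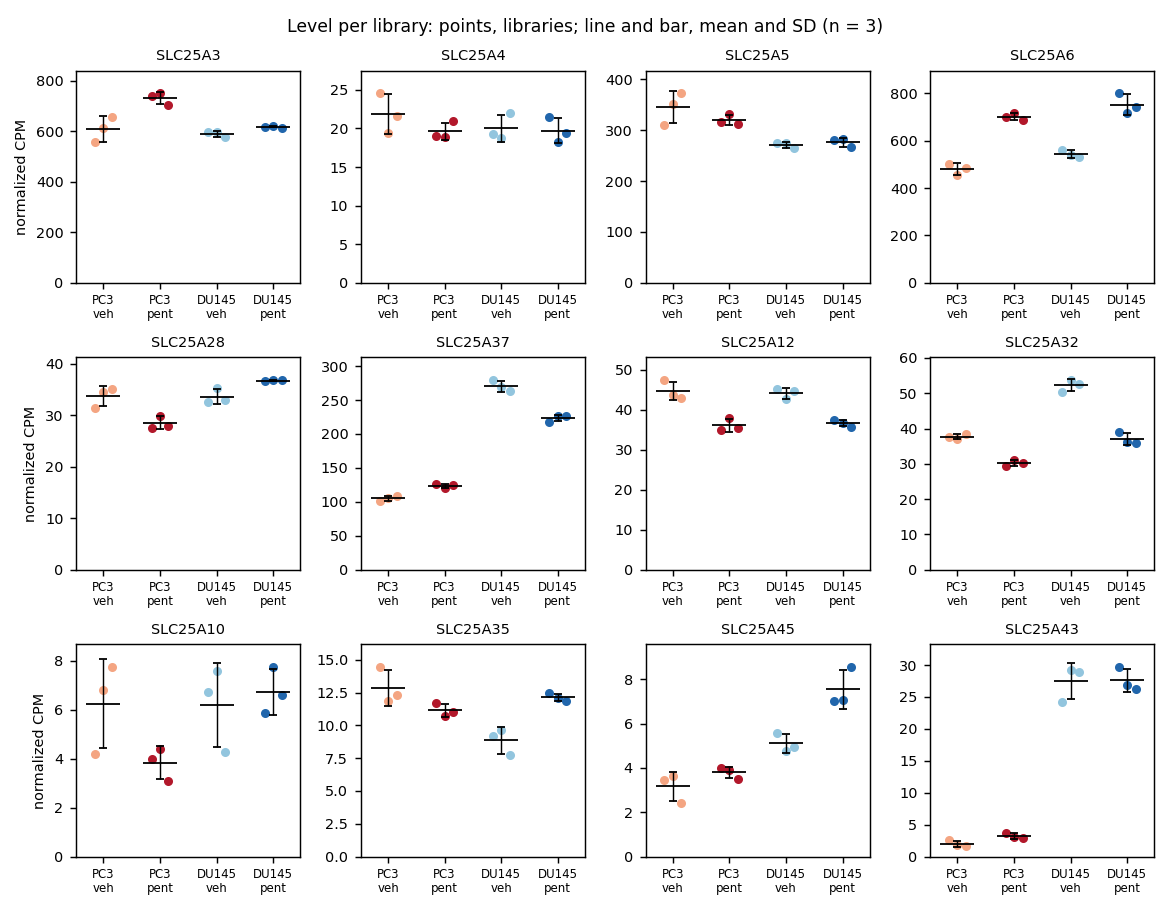
Normalized CPM (y axis, from 0) of 12 carriers in each library of the 4 groups (x axis, veh for vehicle and pent for pentamidine). Points are libraries, lines and bars the mean and SD (n = 3). SLC25A6 is higher with pentamidine in both lines, and SLC25A37 is higher in PC3 (105 to 124 on average) and lower in DU145 (270.4 to 224).

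Among 9 amino acid carriers listed, 7 were kept. In PC3, 2 rose and 3 fell (71.4% called, beside 43.4% of all genes), and in DU145, 1 rose and 3 fell (57.1%, beside 34.0%). SLC25A12, SLC25A13 and SLC25A44 fell in both lines, SLC25A29 rose in both, and SLC25A38 rose in PC3. The glutamate carrier SLC25A22 and the ornithine carrier SLC25A15 passed in neither, with log2 fold changes from -0.15 to -0.09. No amino acid carrier passed the test of a difference between the lines, beside 20.4% of all genes.

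The aspartate/glutamate carriers SLC25A12 and SLC25A13 are parts of the malate-aspartate shuttle. SLC25A12 (chr2:171784370-171999859, minus strand) had 47.4, 43.8 and 43.1 normalized CPM in PC3 vehicle and 35.0, 37.9 and 35.4 in PC3 pentamidine, and 45.1, 42.6 and 44.7 in DU145 vehicle and 37.5, 36.8 and 35.8 in DU145 pentamidine. SLC25A13 (chr7:96120220-96322147, minus strand) had 61.3, 68.8 and 64.5 in PC3 vehicle, 48.4, 49.4 and 54.2 in PC3 pentamidine, 82.0, 89.1 and 79.4 in DU145 vehicle and 67.1, 72.2 and 66.8 in DU145 pentamidine. For both genes every treated library was below every vehicle library of its line. The log2 fold changes of SLC25A12 were -0.31 ± 0.070 in PC3 and -0.26 ± 0.062 in DU145 (edgeR adjusted p = 0.0019 and 0.00066). Those of SLC25A13 were -0.35 ± 0.069 and -0.28 ± 0.050 (adjusted p = 0.00055 and 1.4e-05). The share of SLC25A13 in their transcripts per kilobase was 66.8% ± 2.3 (SD, n = 3) and 66.2% ± 1.8 in PC3 and 72.4% ± 1.7 and 72.3% ± 0.92 in DU145. Their windows are shown because both genes fell in both lines. They lie at chr2:171894245-171894494 (within the span the files give for SLC25A12) and chr7:96322099-96322348, both on the minus strand, with capitals as above.

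SLC25A12: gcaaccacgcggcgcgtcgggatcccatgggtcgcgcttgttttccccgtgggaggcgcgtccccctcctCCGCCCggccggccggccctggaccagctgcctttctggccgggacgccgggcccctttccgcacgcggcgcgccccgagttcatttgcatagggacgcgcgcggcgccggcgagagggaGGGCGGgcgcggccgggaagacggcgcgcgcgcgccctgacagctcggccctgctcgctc
SLC25A13: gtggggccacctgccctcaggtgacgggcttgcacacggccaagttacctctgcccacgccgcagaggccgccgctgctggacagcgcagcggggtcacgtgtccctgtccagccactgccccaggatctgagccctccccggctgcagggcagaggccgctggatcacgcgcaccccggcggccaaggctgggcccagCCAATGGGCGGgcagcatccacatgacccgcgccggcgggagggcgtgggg

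The SLC25A12 window held 2 GC boxes and no CCAAT match. That of SLC25A13 held 1 GC box and 1 CCAAT match, which adjoin, and neither held the ETS motif. SLC25A44, a carrier of branched-chain amino acids, fell from between 64.5 and 65.9 to between 48.8 and 55.0 normalized CPM in PC3 (-0.31 ± 0.064, edgeR adjusted p = 0.00074) and from between 62.4 and 67.6 to between 52.3 and 56.5 in DU145 (-0.26 ± 0.054, adjusted p = 0.00010). SLC25A29, which carries basic amino acids, rose from between 8.26 and 10.9 to between 12.7 and 14.1 in PC3 (0.48 ± 0.12, adjusted p = 0.0044) and from between 14.4 and 17.8 to between 18.6 and 24 in DU145 (0.42 ± 0.097, adjusted p = 0.00042). SLC25A38, the glycine carrier of haem synthesis, was at 0.25 ± 0.077 in PC3 (adjusted p = 0.016), and this call was lost in limma and without PC3 vehicle replicate 2 or PC3 pentamidine replicate 2 (0.19 and 0.20, adjusted p = 0.092 and 0.095).

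The uncoupling protein relatives SLC25A14 and SLC25A30 passed the test in neither line. SLC25A14 ranged from 13.6 to 13.8 normalized CPM in PC3 vehicle, 14.1 to 18.2 in PC3 pentamidine, 8.58 to 9.23 in DU145 vehicle and 7.47 to 9.65 in DU145 pentamidine. SLC25A30 was at log2 fold changes of -0.18 in PC3 and -0.22 in DU145 (edgeR adjusted p = 0.19 and 0.068). Uncoupling proteins named UCP fell outside the name rule and are given with the other transport genes below. Of 2 such genes, UCP2 rose in both lines (edgeR, adjusted p below 0.05) and the other passed in neither.

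All 4 carriers of tricarboxylates and Krebs cycle acids were kept, of which 1 rose and 2 fell in PC3 (75.0% called, beside 43.4% of all genes). None passed in DU145 (beside 34.0% of all genes), where edgeR gave values from -0.19 to 0.13. The dicarboxylate carrier SLC25A10 had 4.20, 6.80 and 7.74 normalized CPM in PC3 vehicle and 3.98, 4.41 and 3.11 in PC3 pentamidine, and 6.71, 7.57 and 4.27 in DU145 vehicle and 5.86, 7.74 and 6.61 in DU145 pentamidine. PC3 vehicle replicate 1 lay within the range of the treated libraries, so the groups overlapped in both lines. The log2 fold change was -0.70 ± 0.22 in PC3 (edgeR adjusted p = 0.016) and 0.13 ± 0.17 in DU145 (adjusted p = 0.58). The PC3 call was lost in limma and without PC3 vehicle replicate 2 or 3 or PC3 pentamidine replicate 3, with values from -0.63 to -0.52 and adjusted p from 0.064 to 0.086.

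The oxoglutarate carrier SLC25A11, which like SLC25A12 and SLC25A13 serves the malate-aspartate shuttle, fell in PC3 from between 86.1 and 97.1 to between 75.2 and 79.3 normalized CPM (-0.21 ± 0.061, edgeR adjusted p = 0.0088). In DU145 it was at 80.4 to 83.5 and 82.5 to 91.6 (0.07 ± 0.047, adjusted p = 0.25), and the difference between lines was -0.29 ± 0.077 (adjusted p = 0.0084). The citrate carrier SLC25A1, a source of cytosolic citrate for lipid synthesis, was at 0.17 ± 0.054 in PC3 (adjusted p = 0.017) and 0.10 ± 0.043 in DU145 (adjusted p = 0.057). Its PC3 call was lost in limma and without PC3 vehicle replicate 2 or PC3 pentamidine replicate 1 or 2, with values from 0.13 to 0.16 and adjusted p from 0.074 to 0.099.

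Of the 8 carriers of cofactors and fatty acids, 1 rose and 3 fell in PC3, and 2 rose and 2 fell in DU145, or 4 of 8 called in each line, beside 43.4% and 34.0% of all genes. SLC25A32, a carrier of folate and FAD (chr8:103398635-103415189, minus strand), had 37.5, 37.0 and 38.4 normalized CPM in PC3 vehicle and 29.4, 31.0 and 30.2 in PC3 pentamidine, and 50.4, 53.7 and 52.6 in DU145 vehicle and 39, 36.3 and 35.9 in DU145 pentamidine. Treated libraries were below vehicle libraries in both lines. It fell in PC3 (-0.31 ± 0.070, edgeR adjusted p = 0.0016) and in DU145 (-0.49 ± 0.060, adjusted p = 2.6e-09). Both calls held under each alternative run, and the difference between lines did not pass (adjusted p = 0.17).

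SLC25A26, which brings the methyl donor S-adenosylmethionine into the matrix, rose by 0.33 ± 0.11 in PC3 and 0.29 ± 0.091 in DU145 (edgeR adjusted p = 0.018 and 0.011), and both calls were lost in DESeq2 (0.073 and 0.075). They were also lost without PC3 vehicle replicate 3 or PC3 pentamidine replicate 1 or 3 (0.29 to 0.32, adjusted p from 0.052 to 0.079) and without DU145 vehicle replicate 2 (0.24, adjusted p = 0.063). SLC25A17, the peroxisomal carrier of coenzyme A and other cofactors, fell in PC3 (-0.29 ± 0.083, adjusted p = 0.010, and -0.23 with 0.067 without PC3 pentamidine replicate 3). SLC25A16, proposed to carry coenzyme A, was at 0.27 ± 0.10 in DU145 (adjusted p = 0.034), a call lost in 7 alternatives, among them DU145 pentamidine replicate 2 left out (0.16, adjusted p = 0.29), DU145 vehicle replicate 1 left out (0.24, 0.11) and DU145 vehicle replicate 3 left out (0.24, 0.13). The carnitine carrier SLC25A20, the coenzyme A carrier SLC25A42 and the NAD carrier SLC25A51 passed in neither line, with values from -0.19 to 0.15.

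The glutathione carriers were SLC25A39 and SLC25A40. SLC25A39 rose in DU145, from between 185 and 188 to between 210.2 and 217 normalized CPM (0.21 ± 0.035, edgeR adjusted p = 5.0e-06), and was at 0.02 ± 0.054 in PC3 (adjusted p = 0.79). SLC25A40 passed in neither line (0.05 and 0.10). SLC25A39 made up 88.6% and 88.4% of their transcripts per kilobase in PC3 and 92.7% and 93.2% in DU145.

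Of 6 carriers with no settled substrate or another role, 1 rose in PC3 of 5 tested and 2 in DU145. SLC25A45 had 3.46, 3.63 and 2.43 normalized CPM in PC3 vehicle, 3.98, 3.91 and 3.51 in PC3 pentamidine, 5.59, 4.77 and 4.96 in DU145 vehicle and 7.01, 7.06 and 8.55 in DU145 pentamidine. Only the DU145 groups stood apart, with a log2 fold change of 0.57 ± 0.15 (edgeR adjusted p = 0.0030), while PC3 was at 0.26 ± 0.20 (adjusted p = 0.33) and the difference between lines did not pass (adjusted p = 0.42). SLC25A35 had 14.4, 11.9 and 12.3 in PC3 vehicle, 11.7, 10.7 and 11 in PC3 pentamidine, 9.18, 9.67 and 7.71 in DU145 vehicle and 12.4, 12.1 and 11.9 in DU145 pentamidine. The groups did not overlap in either line. It rose in DU145 (0.46 ± 0.12, adjusted p = 0.0019), was at -0.20 ± 0.12 in PC3 (adjusted p = 0.17) and differed between lines by -0.66 ± 0.16 (adjusted p = 0.0037).

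SLC25A43 had 2.58, 1.75 and 1.62 normalized CPM in PC3 vehicle and 3.65, 3.13 and 2.84 in PC3 pentamidine, and 24.2, 29.3 and 28.9 in DU145 vehicle and 29.7, 26.9 and 26.3 in DU145 pentamidine. It rose in PC3 (0.69 ± 0.24, edgeR adjusted p = 0.027) on 22 to 54 counts per library and was at 0.01 ± 0.079 in DU145. The PC3 call was lost in DESeq2 (0.10) and without PC3 vehicle replicate 2 or 3 or PC3 pentamidine replicate 1 or 2, with values from 0.57 to 0.71 and adjusted p from 0.059 to 0.12. SLC25A46, an outer membrane protein that shapes mitochondria, passed in neither line (-0.14 and -0.13).

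The difference in response between PC3 and DU145 passed the test for 9 of 40 carriers, 4 higher and 5 lower in PC3 than in DU145, or 22.5%, beside 20.4% of 15226 genes (10.2% higher and 10.3% lower). Past 0.5 were 5 of them, beside 8.51% of all genes, and 1 was past 1 (SLC25A34), beside 2.62%. Scaled by library size alone the split was 2 higher and 7 lower, and over all genes the share of calls that were higher went from 49.7% to 33.2%. SLC25A11, SLC25A28, SLC25A35 and SLC25A37 held under each alternative run, while SLC25A3, SLC25A10, SLC25A34, SLC25A39 and SLC25A43 did not. The largest fitted value, 2.05 ± 0.70 for SLC25A34 (edgeR adjusted p = 0.036), rested on 5, 2 and 1 counts in PC3 vehicle, 11, 7 and 7 in PC3 pentamidine, 19, 22 and 14 in DU145 vehicle and 17, 9 and 15 in DU145 pentamidine. Its size depends on the small number added to low counts, and it ran from 0.63 to 2.83 over the alternatives.

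With vehicle, the 2 lines differed in 26 of 40 carriers, 12 higher and 14 lower in PC3, or 65.0%, beside 65.3% of 14394 genes (31.5% higher and 33.8% lower by edgeR, adjusted p below 0.05). The libraries of the lines did not overlap for 28 carriers and for 69.1% of all genes. Past a log2 fold change of 0.5 were 14 carriers, beside 38.1% of all genes, and past 1 were 6, beside 19.2%. SLC25A43 differed most, at -3.81 ± 0.16 (adjusted p = 2.7e-12), with the values given above. SLC25A34, at the counts above, was at -2.80 ± 0.50 (adjusted p = 0.00012) and ran from -3.56 without PC3 vehicle replicate 1 to -0.94 in limma. SLC25A21, the oxodicarboxylate carrier, had 0.271, 0.713 and 0.885 normalized CPM in PC3 vehicle, 0.811, 0.925 and 0.743 in PC3 pentamidine, 2.46, 2.66 and 2.69 in DU145 vehicle and 2.43, 2.11 and 2.29 in DU145 pentamidine. It was at -2.08 ± 0.34 (adjusted p = 4.6e-05), and ran from -2.38 without PC3 vehicle replicate 3 to -1.14 in limma. Where 10 counts were required in every sample neither SLC25A34 nor SLC25A21 was tested, which left 4 carriers past 1. SLC25A37 was at -1.39 ± 0.050 (adjusted p = 5.8e-13).

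The other direction was led by SLC25A53 and SLC25A42. SLC25A53 had 7.12, 6.09 and 6.42 normalized CPM in PC3 vehicle, 7.23, 5.98 and 8.17 in PC3 pentamidine, 2.69, 1.96 and 2.00 in DU145 vehicle and 1.86, 2.85 and 1.88 in DU145 pentamidine, for a line difference of 1.54 ± 0.19 (edgeR adjusted p = 2.2e-06). SLC25A42 had 27.7, 23.9 and 24.2 in PC3 vehicle, 23, 23.2 and 21.3 in PC3 pentamidine, 9.03, 11.1 and 7.85 in DU145 vehicle and 9.87, 9.85 and 10.1 in DU145 pentamidine, for 1.41 ± 0.12 (adjusted p = 2.5e-08). Both genes were higher in every PC3 library than in every DU145 library, treated or not, and neither passed the test of a response to pentamidine.

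**Figure D3:**
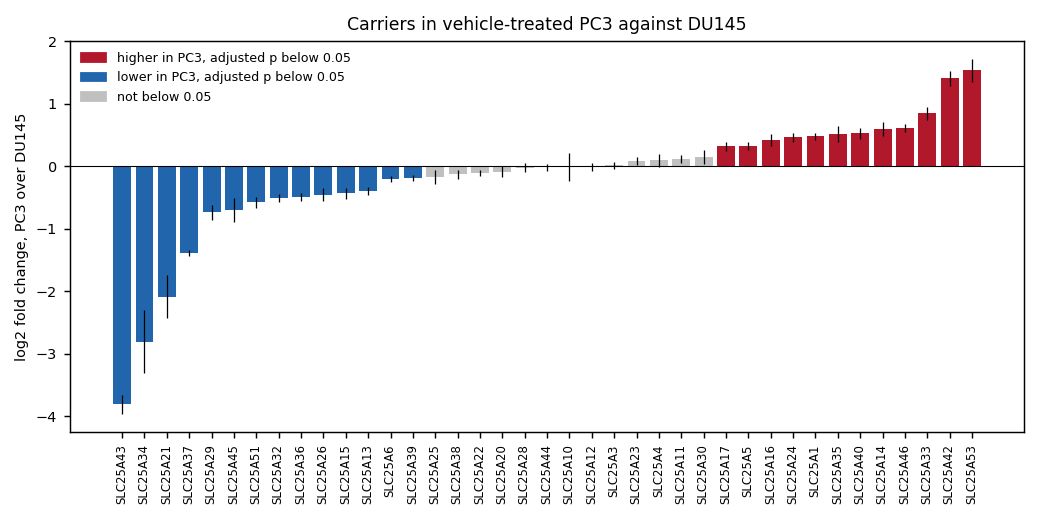
Log2 fold change of PC3 over DU145 with vehicle (y axis) for the carriers (x axis, in order of the value). Bars are estimates from edgeR, whiskers 1 standard error, and colours mark the direction of calls at an adjusted p below 0.05. SLC25A43 stands at -3.81 and SLC25A53 at 1.54.

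Levels were compared between carriers per kilobase of exon. In PC3 vehicle SLC25A5 was at 230.0 ± 20.9 and SLC25A6 at 222 ± 11.2 normalized CPM per kilobase (SD, n = 3), with ranges of 207 to 248 and 210.0 to 232 that overlapped. In the other 3 groups SLC25A6 was above SLC25A5 without overlap, at 324 against 213 in PC3 pentamidine, 251 against 181 in DU145 vehicle and 348 against 184 in DU145 pentamidine. SLC25A3 came next in all 4 groups, at 68.5 ± 5.7, 82.2 ± 2.7, 66.5 ± 1.3 and 69.5 ± 0.34, followed by SLC25A1 and SLC25A39, in that order in PC3 and the reverse in DU145. SLC25A3 and SLC25A1 overlapped in PC3 vehicle. The place of SLC25A3 depends on its exon length, 8896 bases beside 1500 for SLC25A5 and 2164 for SLC25A6. Undivided by length, SLC25A3 had a mean of 609, 731 and 591 normalized CPM in PC3 vehicle, PC3 pentamidine and DU145 vehicle. SLC25A6 had 480, 700 and 543 there, with overlapping ranges in PC3 pentamidine. In DU145 pentamidine the order was the reverse, 618 for SLC25A3 against 753 for SLC25A6. Which transcripts were present was not tested. Of the 39 pairs of neighbours in order of level, 17 to 21 per group did not overlap in their ranges.

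SLC25A3, SLC25A5 and SLC25A6 took 46.5% of the carriers' counts in PC3 vehicle and 52.3% with pentamidine, and 44.7% and 49.4% in DU145. At the low end, SLC25A34 was at 0.0566, 0.179, 0.409 and 0.299 normalized CPM per kilobase in PC3 vehicle, PC3 pentamidine, DU145 vehicle and DU145 pentamidine. With the longest transcript as the length, 9 of the 10 highest carriers were the same in each group. Reads of near-identical copies can be split in counting. The 13 carrier pseudogenes listed had at most 5 counts in a library, which does not settle this, since the counting program is not given. SLC25A25-AS1 (70 to 126 counts), SLC25A5-AS1 (16 to 41) and SLC25A21-AS1 (7 to 21) overlap carriers on the other strand, and whether counting used the strand is not stated.

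**Figure D4:**
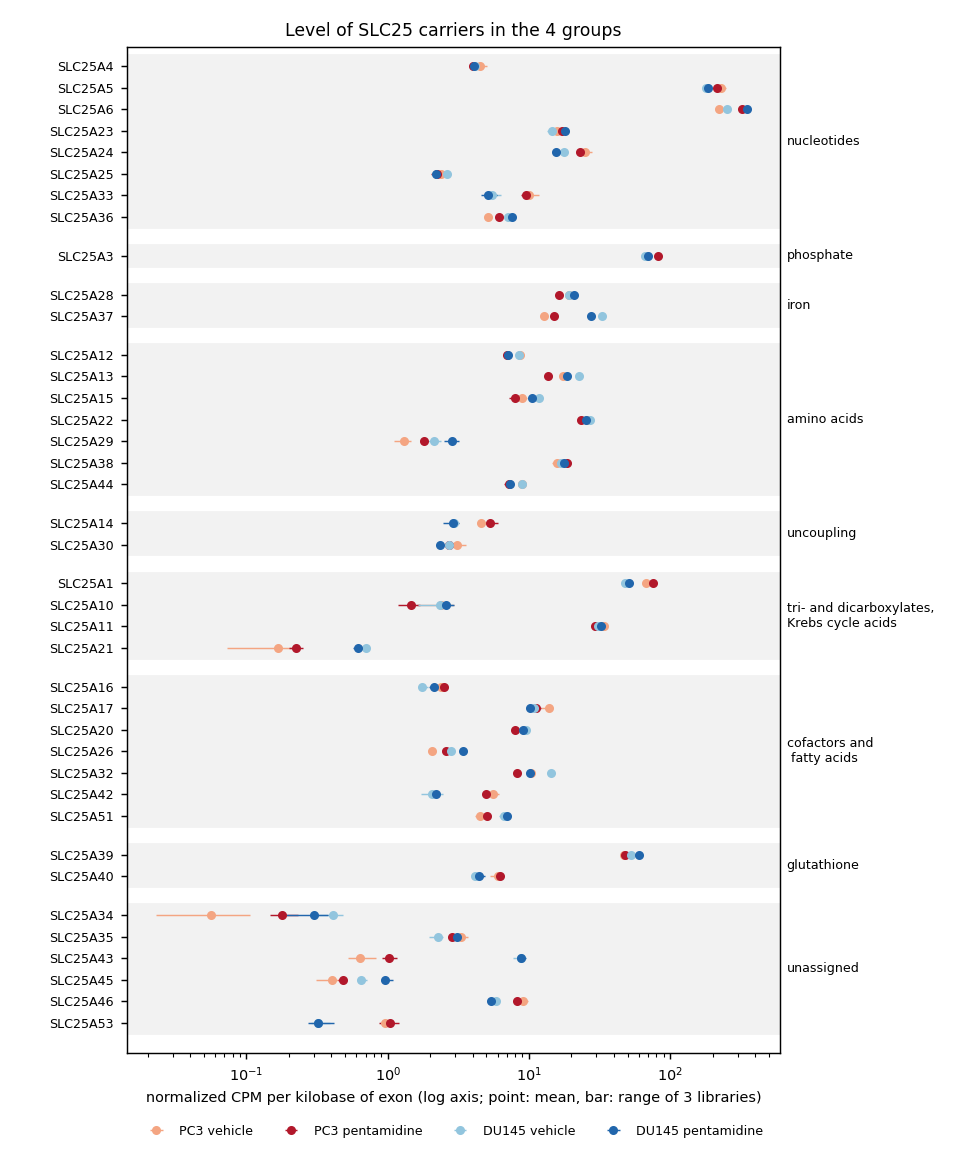
Normalized CPM per kilobase of exon (x axis, log scale) of the carriers (y axis, grouped by substrate) in the 4 groups. Points are means and bars the range of 3 libraries. SLC25A5 and SLC25A6 lie at 181 or more in all groups, and SLC25A34 lies between 0.0566 and 0.409.

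Other genes of mitochondrial transport were set beside the carriers. The uncoupling proteins named UCP and the carrier-like MTCH proteins are relatives that the name rule left out, so this list is not separate from the family. Of 24 such genes (uncoupling proteins named UCP, the carrier-like MTCH proteins, the pyruvate carrier, sideroflexins, the import of carriers and the VDAC channels), 5 rose and 10 fell in PC3, and 3 rose and 7 fell in DU145 (edgeR, adjusted p below 0.05, beside 43.4% and 34.0% of all genes called). The difference in response passed for 5, all lower in PC3, or 20.8%, beside 20.4% of all genes (10.3% lower). UCP2, an uncoupling protein that also moves C4 metabolites, had 40.1, 40.3 and 41.3 normalized CPM in DU145 vehicle and 64.2, 65.6 and 60.8 in DU145 pentamidine, and 39.7, 34.4 and 41.7 in PC3 vehicle and 44.6, 48.0 and 44.2 in PC3 pentamidine. It rose in both lines (0.65 ± 0.056 in DU145 and 0.25 ± 0.078 in PC3), and the responses differed by -0.40 ± 0.095 (adjusted p = 0.0026).

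The responses of SFXN2, a sideroflexin, and TIMM29, a subunit of the complex that inserts carriers in the inner membrane, differed between the lines by -0.61 ± 0.12 and -0.53 ± 0.14 (edgeR adjusted p = 0.00025 and 0.0079). SFXN2 had 21.5 to 24.5 normalized CPM in PC3 vehicle and 16.3 to 18.4 with pentamidine, and 27.5 to 31.7 and 33.5 to 35.9 in DU145. TIMM29 had 18.3 to 19.8 and 14.1 to 15.7 in PC3, and 10.9 to 12.7 and 11.8 to 14.2 in DU145. With vehicle, 7 of the 24 were past 0.5 in either direction between the lines, beside 38.1% of all genes. PC3 had more MPC1, a subunit of the pyruvate carrier (1.59 ± 0.15), SFXN3 (0.67), TIMM29 (0.67) and MTCH1 (0.60), and less TIMM9 (-0.62) and TIMM10 (-0.62), chaperones of carriers between the membranes, and VDAC2 (-0.53), a channel of the outer membrane.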

How the data were processed

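The 12 samples were grouped by their labels. The authors deposited whole-number read counts per gene, not normalized. Per the labels, reads were aligned with HISAT2 2.1.0 to GRCh38 and genes tested with DESeq 1.18.1. The counting program is not given in the sources used here. A table that the authors deposited as FPKM holds CPM: 100% of 384876 values equalled the counts scaled to 1000000 per library within 1 part in 100000, and 100% of the recovered reads were whole within 0.01. The authors' fold changes and p-values were not used. One entry was kept per gene name (32077 genes), and coordinates match GENCODE 29 for 30922 of 31961 genes.

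Each comparison was fitted on its own samples with edgeR 4.0.16 in R 4.3.3 (quasi-likelihood test, TMM, genes kept by filterByExpr with its minimum count at 10), and p-values were adjusted over all genes by Benjamini-Hochberg, with a threshold of 0.05. The difference in response used all 12 samples. Standard errors were derived from the fold change and its F statistic. Alternatives were other scalings, filters, DESeq2 1.42.0, all samples in one fit, the replicate block and each sample left out. Another was limma 3.58.1 on log2(CPM + 1), which understates low genes and is scaled by library size alone. A last one, chosen after seeing the data, was edgeR on reads recovered from CPM. It refits the deposited counts, so it is no separate check. Members and lists were chosen with earlier results of these data known. Values in every sample are given for members past a log2 fold change of 0.5 in a response or its difference, the 5 largest line differences, SLC25A3, SLC25A4, SLC25A5, SLC25A6, SLC25A28 and SLC25A37, and, chosen after their values were seen, SLC25A12, SLC25A13 and SLC25A32. Other transport genes are named past 0.5. One carrier is counted with the others and not reported singly here or drawn. Scripts were tested on simulated data. Depth was 13514195 to 15131436 counts per library.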

Additional observations from a re-analysis of the deposited data

Results flagged for a closer look

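The response to pentamidine differed between PC3 and DU145 for 9 carriers by the interaction test of edgeR (adjusted p below 0.05), beside 20.4% of all genes. The differences in log2 fold change, PC3 minus DU145, were 0.20 for SLC25A3, -0.83 for SLC25A10, -0.29 for SLC25A11, -0.37 for SLC25A28, 2.05 for SLC25A34, -0.66 for SLC25A35, 0.51 for SLC25A37, -0.18 for SLC25A39 and 0.68 for SLC25A43. The adjusted p of SLC25A37 ran from 4.6e-14 to 0.0015 over its alternatives and that of SLC25A28 from 0.0016 to 0.026. For SLC25A11 and SLC25A35 the highest was 0.044 and 0.019. The other 5 lost the call somewhere, with a highest adjusted p of 0.31 for SLC25A3, 0.16 for SLC25A10, 0.11 for SLC25A34, 0.12 for SLC25A39 and 0.13 for SLC25A43.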

How the results depend on the processing

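Calls held under every alternative that tested the gene for 11 of 18 carriers in PC3, 12 of 15 in DU145, 24 of 26 between the lines and 4 of 9 in the difference in response, and no called carrier changed direction. Some alternatives also called carriers not called above, 5 in PC3 (among them SLC25A22 and SLC25A46), 7 in DU145 (among them SLC25A30), 4 between the lines and 3 in the difference (among them SLC25A23). In PC3, 1 carrier passed a log2 fold change of 1 with all 12 samples in one fit (SLC25A34, then tested), against 0 otherwise. Carriers higher in DU145 numbered 13 scaled by library size alone, against 8. For the difference in response, 2 were higher by library size alone and 2 by limma, against 4, and 3 were lower by RLE and 3 by DESeq2, against 5. The limma values are CPM, so they share their scaling with the fit by library size alone, and DESeq2 uses size factors of the RLE type. These pairs are thus not separate checks of the scaling. The cause was not tested. SLC25A4, called in no comparison, changed sign in DU145 from -0.02 to 0.031 by library size alone and 0.032 by limma, and ran from -0.088 to 0.056 with 1 library left out (0.056 without DU145 vehicle replicate 3 and 0.028 without DU145 pentamidine replicate 2). Further carriers that passed no test changed sign in some alternative, 3 in all in PC3, 7 in DU145, 5 between lines and 12 in the difference, so their signs are not read.

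Leaving out 1 library at a time gave 6 to 9 carriers higher and 6 to 10 lower in PC3, 7 to 8 and 7 to 8 in DU145, 12 to 13 and 14 to 15 between lines, and 1 to 4 and 3 to 7 in the difference, the last moving over 1.5 times without most single libraries (10 of 12 in one direction or the other). SLC25A6 and SLC25A39 lost the line difference in limma (adjusted p = 0.12 and 0.17), SLC25A39 also by library size alone (0.073). SLC25A5 gained a difference in response without PC3 vehicle replicate 1 (-0.20, adjusted p = 0.0082) and by library size alone (-0.20, 0.034).

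The deviations of same-numbered samples correlated at -0.073 to 0.039, so no pairing by replicate number was detected. Such correlations cannot tell whether same-numbered samples were handled together. With the replicate block the counts were 9 higher and 9 lower in PC3, 8 and 7 in DU145, 12 and 14 between lines, and 3 and 4 in the difference, where SLC25A34 (adjusted p = 0.051) and SLC25A39 (0.065) were lost. Carriers at a few counts, such as SLC25A34, are limited by depth.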
